A study of Mus musculus with 24 samples.

Results

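MLL1 occupancy was compared between 4 mouse leukaemia cell lines, each named for a different NUP98 fusion and each kept in DMSO, the solvent of the inhibitor used elsewhere in the study. The NUP98-HOXA9 line had been in DMSO for 72 h, and the NUP98-HOXD13, NUP98-JARID1A and NUP98-NSD1 lines for 96 h. The members were the 4 peak lists made from the MLL1 chromatin immunoprecipitations of these cultures, chosen by antibody, agent and time from the labels. Peak names inside the NUP98-HOXD13 list carry the line, antibody, agent, time and index of its title but another sample-sheet number, and those of the NUP98-HOXA9 list another date-like number. Both lists were used as they are assigned to their samples. They are 4 of the 24 libraries of the series, 14 of which came with a list, and they hold 65566 of the 192030 regions in those 14 lists. All cells grew with the mouse cytokines IL-3, IL-6 and SCF. The labels give the source as mouse leukaemia and give no strain, age or sex, nor how each fusion was introduced. Each line is 1 culture and 1 library, so no difference below has a replicate check and no p-value is given. The fusion, the line it sits in and the date-like number in each library's title cannot be told apart, and for NUP98-HOXA9 the shorter time cannot be told apart from them either. The 95% intervals given are Wilson intervals over regions or genes and cover counting error only.

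MLL1, encoded by Kmt2a, is a histone methyltransferase that marks lysine 4 of histone H3 and is held at part of its targets by the scaffold protein menin. It sits at many CpG-rich promoters in most cells, and in acute leukaemias driven by MLL or NUP98 fusions it spreads over the Hoxa genes and Meis1, a homeodomain partner of HOX proteins. NUP98 fusions join the repeat-rich amino-terminal part of a nuclear pore protein to a partner. HOXA9 and HOXD13 supply a DNA-binding homeodomain, JARID1A (gene Kdm5a) a PHD finger that reads methylated lysine 4 of histone H3, and NSD1 the domains of another histone methyltransferase.

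A gene was counted as bound when a region lay within 1 kb of either annotated end, over 21631 protein-coding genes of chromosomes 1 to 19 and X. A wide domain is a region of at least 2 kb. Covered length counts the bases inside regions across a gene body plus 2 kb on either side. Fold enrichments are those of the authors' peak lists and serve to describe regions within 1 list.

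Promoters that show where the lines agree and differ are given first, as RefSeq promoter sequence (GRCm38.p6) from 250 bases before to 50 bases after a start site, 5′ to 3′, with every CG, which reads the same on both strands, in capitals. Hoxa9 (chr6:52227321-52227620, minus strand) lay wholly inside a region in all 4 lists. Hoxc4 (chr15:103034145-103034444, plus strand) lay wholly inside a region in NUP98-HOXA9 and NUP98-HOXD13, with 0 bases in the other lists. Nkx2-3 (chr19:43612075-43612374, plus strand) and Six4 (chr12:73113196-73113495, minus strand) lay wholly inside a region in NUP98-JARID1A, with 0 bases in the other lists. An inner start site of Mecom (chr3:30013155-30013454, minus strand) had 176 of its 300 bases in a region in NUP98-HOXD13 and 0 in the others. Hoxa11 (chr6:52245761-52246060, minus strand) was covered whole in NUP98-NSD1, over 153 bases in NUP98-JARID1A, over 218 in NUP98-HOXD13 and over 0 in NUP98-HOXA9. App (chr16:85173658-85173957, minus strand) was covered whole in NUP98-NSD1, over 171 bases in NUP98-HOXD13 and over 0 in the other lists.
Hoxa9: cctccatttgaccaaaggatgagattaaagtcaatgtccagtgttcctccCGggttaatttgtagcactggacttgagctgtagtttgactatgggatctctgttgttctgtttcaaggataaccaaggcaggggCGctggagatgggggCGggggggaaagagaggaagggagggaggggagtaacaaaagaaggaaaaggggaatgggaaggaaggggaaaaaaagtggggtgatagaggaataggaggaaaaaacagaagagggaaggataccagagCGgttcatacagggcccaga
Hoxc4: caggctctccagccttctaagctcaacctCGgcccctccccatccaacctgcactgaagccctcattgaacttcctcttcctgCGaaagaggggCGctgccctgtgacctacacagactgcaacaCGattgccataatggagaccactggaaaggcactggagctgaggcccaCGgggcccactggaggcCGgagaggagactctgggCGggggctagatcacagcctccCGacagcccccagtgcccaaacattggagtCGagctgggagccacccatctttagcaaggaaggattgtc
Nkx2-3: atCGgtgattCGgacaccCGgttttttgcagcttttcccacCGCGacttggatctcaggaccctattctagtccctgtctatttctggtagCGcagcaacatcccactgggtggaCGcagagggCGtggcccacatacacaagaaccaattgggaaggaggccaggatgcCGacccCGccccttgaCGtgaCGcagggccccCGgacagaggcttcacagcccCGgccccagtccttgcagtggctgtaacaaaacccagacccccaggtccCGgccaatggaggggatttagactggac
Six4: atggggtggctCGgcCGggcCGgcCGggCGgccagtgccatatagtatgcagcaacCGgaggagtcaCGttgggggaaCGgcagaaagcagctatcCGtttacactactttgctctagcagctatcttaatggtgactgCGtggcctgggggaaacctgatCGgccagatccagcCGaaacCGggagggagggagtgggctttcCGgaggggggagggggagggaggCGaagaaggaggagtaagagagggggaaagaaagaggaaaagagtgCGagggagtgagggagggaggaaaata
Mecom: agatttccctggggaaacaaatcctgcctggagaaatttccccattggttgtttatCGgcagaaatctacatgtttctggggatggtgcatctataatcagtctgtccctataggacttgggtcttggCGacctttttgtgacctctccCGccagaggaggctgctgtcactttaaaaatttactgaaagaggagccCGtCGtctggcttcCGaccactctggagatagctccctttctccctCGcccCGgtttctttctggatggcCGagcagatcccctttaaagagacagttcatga
Hoxa11: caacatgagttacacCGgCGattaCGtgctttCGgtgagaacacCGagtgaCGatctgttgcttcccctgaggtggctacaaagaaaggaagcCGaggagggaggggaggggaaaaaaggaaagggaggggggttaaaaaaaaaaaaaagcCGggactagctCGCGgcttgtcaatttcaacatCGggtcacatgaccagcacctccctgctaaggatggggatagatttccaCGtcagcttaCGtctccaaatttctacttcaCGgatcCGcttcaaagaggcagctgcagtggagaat
App: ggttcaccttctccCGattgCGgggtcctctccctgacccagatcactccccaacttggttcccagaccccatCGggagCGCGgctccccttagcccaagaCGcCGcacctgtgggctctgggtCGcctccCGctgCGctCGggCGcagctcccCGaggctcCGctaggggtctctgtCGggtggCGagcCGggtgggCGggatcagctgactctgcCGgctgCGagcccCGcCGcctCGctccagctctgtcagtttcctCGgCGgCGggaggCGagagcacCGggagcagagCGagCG

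These 7 promoters differ widely in CpG content, from 4 CG in Hoxa9 and 9 each in Hoxc4 and the inner Mecom start to 15 in Nkx2-3 and Hoxa11, 16 in Six4 and 30 in App. Of all 21045 RefSeq promoters of this length, 95.5% hold at least 1 CG and the median promoter holds 13. The median was 5 CG for promoters in no list, 13.5 in 1 list, 15 in 2, 22 in 3 and 27 in all 4. Promoters found in a single list held a median of 10 CG for NUP98-HOXA9, 15.5 for NUP98-HOXD13, 16 for NUP98-JARID1A and 15 for NUP98-NSD1. Each of these 4 medians lay below those of promoters in 3 or all 4 lists, while 3 of them were at or just above the median of promoters in 2. The Hoxa9 promoter, bound in all 4 lines, sat below all of these medians.

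The 4 lists differ in length, which bears on every count of what 1 line holds alone. NUP98-HOXA9 has 22534 regions, NUP98-HOXD13 20154, NUP98-JARID1A 15765 and NUP98-NSD1 7113, and read depth is not given in the sources used here. Median region width was 455 to 536 bp and covered sequence 15.3, 12.8, 10.9 and 4.66 Mb, in the same order. Lists of equal length were therefore also compared, made of the 7113 strongest regions of each by q-value. The last region kept then has a −log10 q of 35.9 for NUP98-HOXA9, 29.0 for NUP98-HOXD13, 17.3 for NUP98-JARID1A and 2.00 for NUP98-NSD1, so equal length does not make the lists equally deep. As a coarse check, which cannot tell lines or agents apart, fixed gene lists were set beside all genes. The housekeeping list had 26, 25, 25 and 16 of 27 genes bound in NUP98-HOXA9, then NUP98-HOXD13, NUP98-JARID1A and NUP98-NSD1. Of all genes, 45.0, 45.6, 41.2 and 22.1% were bound. Genes of liver, nerve, muscle and epithelium had 2, 2, 1 and 1 of 22 bound, and B lymphoid markers 1, 1, 1 and 0 of 13.

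The NUP98-NSD1 list also differed by chromosome. Chromosome 6 held 639 of its regions, 8.98% (8.34 to 9.67), against 5.46% in NUP98-HOXA9, 5.19% in NUP98-HOXD13 and 5.40% in NUP98-JARID1A, and 4.54 to 4.84% in their equal-length lists. Chromosome X held 29 of its regions, 0.408%, against 2.06%, 1.79% and 1.70%. Counted against NUP98-HOXA9, NUP98-NSD1 had 51.9% as many regions on chromosome 6, 6.25% as many on X and 31.6% as many overall. Within chromosome 6 this value was 32.7 to 74.3% over the 15 bins of 10 Mb, so all 15 lay above the overall value. The Hoxa cluster, Etv6, Foxp1 and Gata2 lie on this chromosome. Copy number was not measured, and its part in the NUP98-NSD1 values was not tested.

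**Figure D1:**
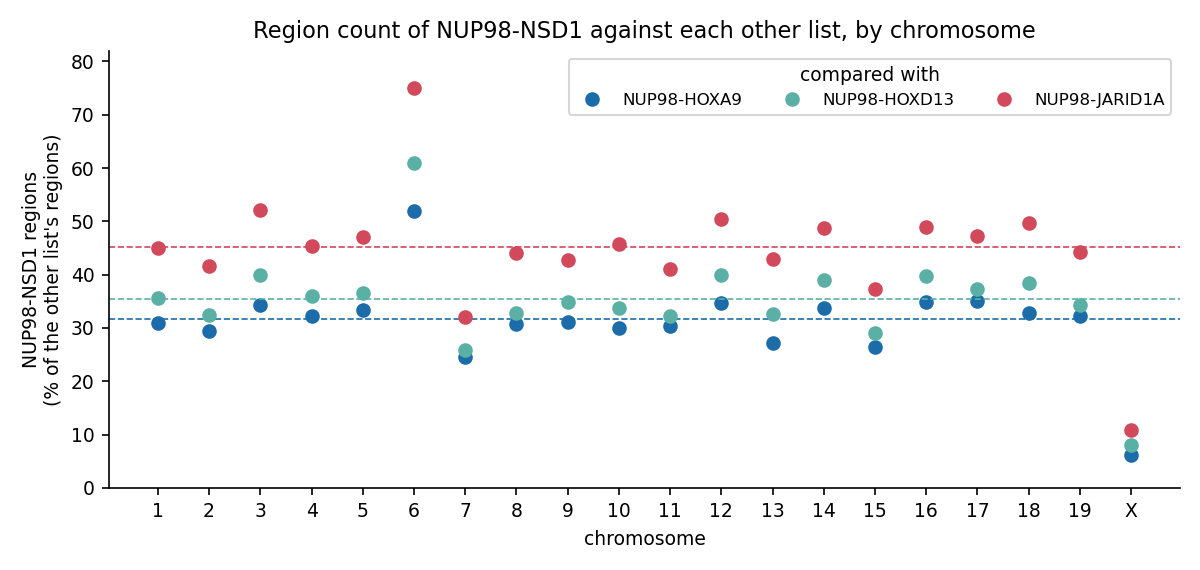
Number of MLL1 regions in the NUP98-NSD1 DMSO list as a percentage of the number in each of the other 3 DMSO lists (colours), by chromosome, with dashed lines for all chromosomes together. Chromosome 6 stands highest against each of the 3 lists (51.9% of the NUP98-HOXA9 count) and chromosome X lowest (6.25%).

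The gene ends that carried MLL1 were largely the same in the 3 long lists. A region lay at the end of 9726 genes for NUP98-HOXA9 (45.0% of genes), 9872 for NUP98-HOXD13 (45.6%), 8905 for NUP98-JARID1A (41.2%) and 4770 for NUP98-NSD1 (22.1%). All 4 lists held 4537 of these genes (21.0%), and a further 3971 were held by all but NUP98-NSD1, the shortest list. Without NUP98-NSD1, 8508 genes were bound in all 3 remaining lines. The next largest pattern was 764 genes bound in the NUP98-HOXA9 and NUP98-HOXD13 lines alone. By contrast 96 genes were bound in NUP98-HOXA9 and NUP98-JARID1A alone, and 99 in NUP98-HOXD13 and NUP98-JARID1A alone. With lists of equal length these counts were 603, 71 and 113. Genes bound in NUP98-JARID1A and NUP98-NSD1 alone went from 12 in the full lists to 378 in those of equal length.

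Region lists showed the same nearness of the homeodomain fusion lines. In equal-length lists 83.7% of NUP98-HOXA9 regions shared at least 1 base with a NUP98-HOXD13 region, and 72.9% with a NUP98-JARID1A region. NUP98-HOXD13 regions were shared with NUP98-JARID1A at 71.5%. NUP98-NSD1 regions were shared at 50.8% with NUP98-HOXA9, 49.8% with NUP98-HOXD13 and 55.9% with NUP98-JARID1A. Merged over the 4 full lists, 27223 regions were found, of which 9583 (35.2%) came from 1 list and 5232 (19.2%) from all 4. Those from 1 list had a median width of 309 bp and lay at a gene end in 12.7% of cases, against 1211 bp and 74.9% for those from all 4.

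**Figure D2:**
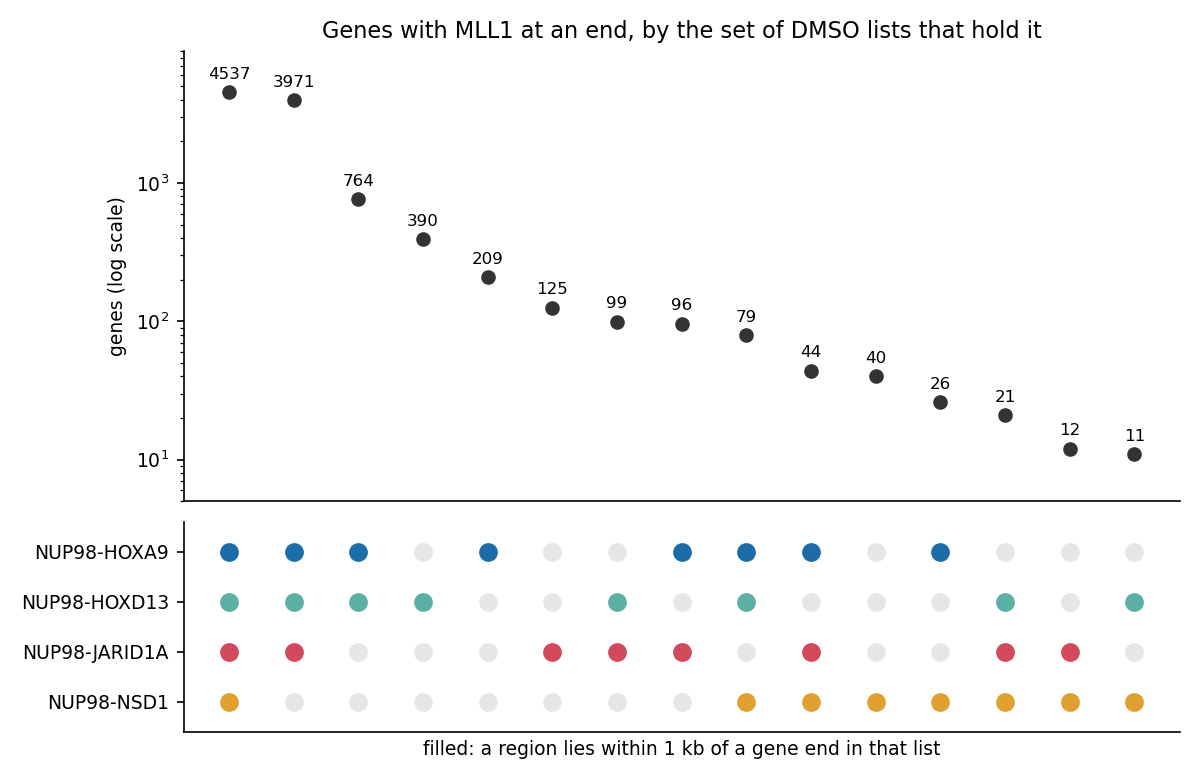
Number of genes (log scale) with an MLL1 region within 1 kb of an end, for each of the 15 combinations of DMSO lists, with filled circles below marking the lists that hold the gene. The 2 largest sets are all 4 lists (4537 genes) and all but NUP98-NSD1 (3971), and genes of a single list number 390, 209, 125 and 40.

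Genes bound in 1 line alone were few in the full lists and, outside NUP98-NSD1, mostly weak for their list. They numbered 209 for NUP98-HOXA9 (0.966% of all genes), 390 for NUP98-HOXD13 (1.80%), 125 for NUP98-JARID1A (0.578%) and 40 for NUP98-NSD1 (0.185%). The median fold enrichment at these ends was 5.67, 5.48, 6.54 and 5.84, against 15.3, 14.4, 10.8 and 6.34 over all bound ends of the same list. With lists of equal length the counts were 210, 357, 190 and 791, so NUP98-NSD1 went from the lowest count to the highest. A region of the line itself among its 7113 strongest was present at 17 of the 209 NUP98-HOXA9 genes, 12 of 390 in NUP98-HOXD13 and 24 of 125 in NUP98-JARID1A.

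Some of these genes had MLL1 in another list farther from their ends, inside the gene or its 2 kb flanks. Genes with no covered base at all in the other 3 lists numbered 123 of 209 in NUP98-HOXA9, 269 of 390 in NUP98-HOXD13, 81 of 125 in NUP98-JARID1A and 18 of 40 in NUP98-NSD1. Requiring both a strong region and no base elsewhere left 4 genes in NUP98-HOXA9, Vmn2r16, Hoxa2, Kctd4 and Smok3b. It left 1 in NUP98-HOXD13, Rab4a, and 14 in NUP98-JARID1A, led by Nkx2-3, Six4, Pik3c2b and Ces1d. These conditions were set after the values were seen. Vmn2r16 and Smok3b belong to large families of near-identical genes, so their regions are uncertain. Ruvbl2, an ATPase of chromatin remodellers, is one that did have such bases. Its end was bound in NUP98-HOXA9 alone, while its covered length was 1078, 833, 708 and 355 bp in NUP98-HOXA9, then NUP98-HOXD13, NUP98-JARID1A and NUP98-NSD1. Grik5 and its neighbour Zfp574 were likewise bound in NUP98-HOXD13 alone, with 840 covered bp there and 949 bp in NUP98-HOXA9. In NUP98-NSD1 the same held for Ptpn1, a tyrosine phosphatase gene, with 898 bp there and 999 to 1341 bp in the other lines.

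Wide domains differed between the lines in number and in overlap. NUP98-JARID1A had 664 domains of at least 2 kb, NUP98-HOXA9 526, NUP98-HOXD13 277 and NUP98-NSD1 119, on chromosomes 1 to 19 and X. Wide domains made up 22.1% of the covered sequence in NUP98-JARID1A, 10.0% in NUP98-HOXA9, 5.93% in NUP98-HOXD13 and 8.47% in NUP98-NSD1. Of them, 401 in NUP98-JARID1A (60.4%; 56.6 to 64.0) touched no wide domain in any other list, as did 243 in NUP98-HOXA9 (46.2%; 42.0 to 50.5), 64 in NUP98-HOXD13 (23.1%; 18.5 to 28.4) and 32 in NUP98-NSD1 (26.9%; 19.7 to 35.5).

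These domains were mostly wider versions of regions that at least 1 other line also had. Another list held a narrower region at 388 of the 401 NUP98-JARID1A domains, 215 of 243 in NUP98-HOXA9, 63 of 64 in NUP98-HOXD13 and 31 of 32 in NUP98-NSD1. All 3 other lists held a region at 315 of 401, 136 of 243, 41 of 64 and 26 of 32, in the same order. The NUP98-JARID1A domains lay mainly at gene ends, 337 of 401 (84.0%; 80.1 to 87.3), while the NUP98-HOXA9 domains did so in 113 of 243 cases (46.5%; 40.3 to 52.8), with 96 inside genes and 34 between genes. The order of the first 2 lines depended on how regions were joined. When regions less than 1 kb apart were merged, NUP98-HOXA9 had 458 such domains, NUP98-JARID1A 364, NUP98-HOXD13 178 and NUP98-NSD1 46. At a width of at least 3 kb they numbered 223 in NUP98-JARID1A, 54 in NUP98-HOXA9, 8 in NUP98-HOXD13 and 4 in NUP98-NSD1.

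**Figure D3:**
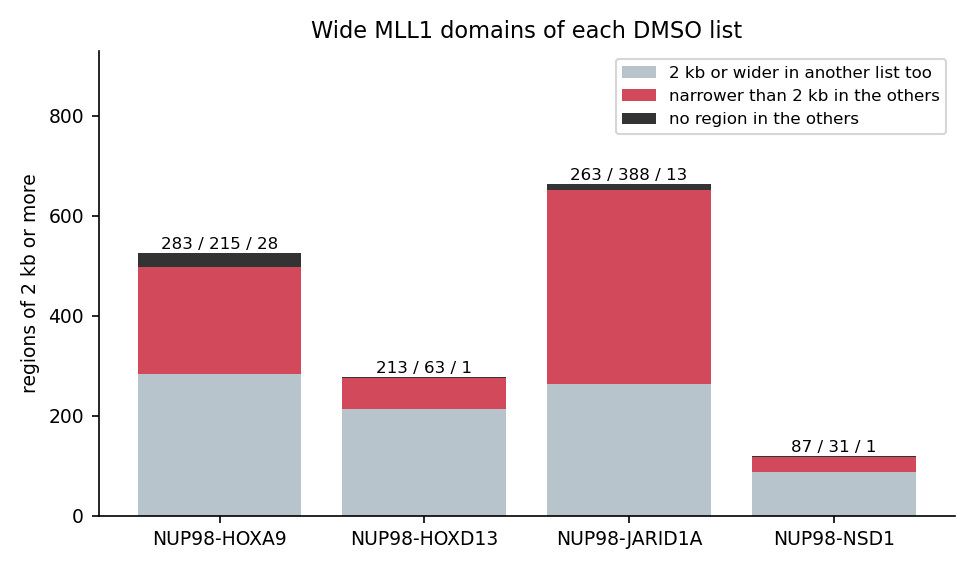
Number of MLL1 regions of 2 kb or more in each DMSO list, split into those that touch such a region in another list, those that touch only narrower regions, and those that touch none (the 3 numbers above each bar, in that order). NUP98-JARID1A has the most regions that are narrower elsewhere (388) and NUP98-HOXA9 the most without any counterpart (28).

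The Hox clusters were covered differently in each line. Hox genes set positional identity in the embryo, and the Hoxa and Hoxb genes also keep blood progenitors in an immature, dividing state. In Hoxa, the block that runs from the Hoxa7 side of the long Hoxa3 annotation over Hoxa7 and Hoxa9 into Hoxa10 was covered in all 4 lists. Its main region measured 23187 bp in NUP98-HOXA9 (chr6:52211278-52234464, fold 64.7), 30990 bp in NUP98-JARID1A (chr6:52208344-52239333, fold 66.2) and 26004 bp in NUP98-NSD1 (chr6:52212448-52238451, fold 38.1). NUP98-HOXD13 had it as separate pieces, the widest of 9564 bp (chr6:52215215-52224778) and 9166 bp (chr6:52225311-52234476). The covered length at Hoxa9 itself was 8274 bp in NUP98-HOXA9, NUP98-JARID1A and NUP98-NSD1 and 7742 bp in NUP98-HOXD13 (the gene and 2 kb on each side). The 3 equal values are the whole of that stretch, so this length cannot show a difference between those lines.

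The edges of the Hoxa block did differ. Hoxa10 was covered over 11721 bp in NUP98-JARID1A and 11762 bp in NUP98-NSD1, against 5268 bp in NUP98-HOXA9 and 5280 bp in NUP98-HOXD13, whose blocks end inside the gene. At Hoxa11 the covered length was 5293 bp in NUP98-NSD1, 2940 bp in NUP98-JARID1A, 218 bp in NUP98-HOXD13 and 0 in NUP98-HOXA9. A further 2382 bp region beside Hoxa11 (chr6:52247529-52249910) was in the NUP98-NSD1 list and touched none in the others. Toward the other end, the NUP98-JARID1A block reached Hoxa6 (2329 bp), where NUP98-HOXA9 had 479 bp and the other lists 0. Hoxa4 carried 1071 bp in NUP98-HOXD13 and 0 in the other lists. NUP98-NSD1 had more regions across all of chromosome 6, as given above, and the part of this in its longer Hoxa block was not tested.

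Hoxc was covered in the homeodomain fusion lines and not in the others. NUP98-HOXA9 had 14 regions there covering 30029 bp and NUP98-HOXD13 14 covering 16409 bp, while the NUP98-JARID1A and NUP98-NSD1 lists held none. The widest lay over Hoxc8 and Hoxc6 in NUP98-HOXA9 (8273 bp, chr15:102993420-103001692, fold 58.1) and at Hoxc5 in NUP98-HOXD13 (4423 bp, chr15:103013663-103018085, fold 29.8). Hoxc6 was covered over 13432 and 7306 bp in these lines, Hoxc4 over 9119 and 5866 bp, and Hoxc5 over 6055 and 5740 bp. Hoxc8 was long in NUP98-HOXA9 alone, with 5033 bp against 510 bp in NUP98-HOXD13.

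Hoxb was covered in all 4 lines to different lengths. It had 36842 bp in NUP98-NSD1, 33031 bp in NUP98-HOXA9, 20565 bp in NUP98-HOXD13 and 17431 bp in NUP98-JARID1A. The short NUP98-NSD1 list thus had the longest Hoxb coverage, on chromosome 11, where it held 30.4% as many regions as NUP98-HOXA9. In NUP98-HOXA9 Hoxb was covered by few long regions, such as 13521 bp over Hoxb6, Hoxb5 and Hoxb3 (chr11:96300577-96314097, fold 70.1). In NUP98-JARID1A it was broken into 21 regions, none over 2754 bp. Hoxb2 was bound in NUP98-NSD1 (2420 bp) and NUP98-JARID1A (1014 bp), with 0 in the others, and Hoxb9 in NUP98-HOXD13 (912 bp) and NUP98-HOXA9 (790 bp), with 0 in the others. The Hoxd cluster, home of the fusion partner Hoxd13, held a single region of 262 bp, in NUP98-NSD1.

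**Figure D4:**
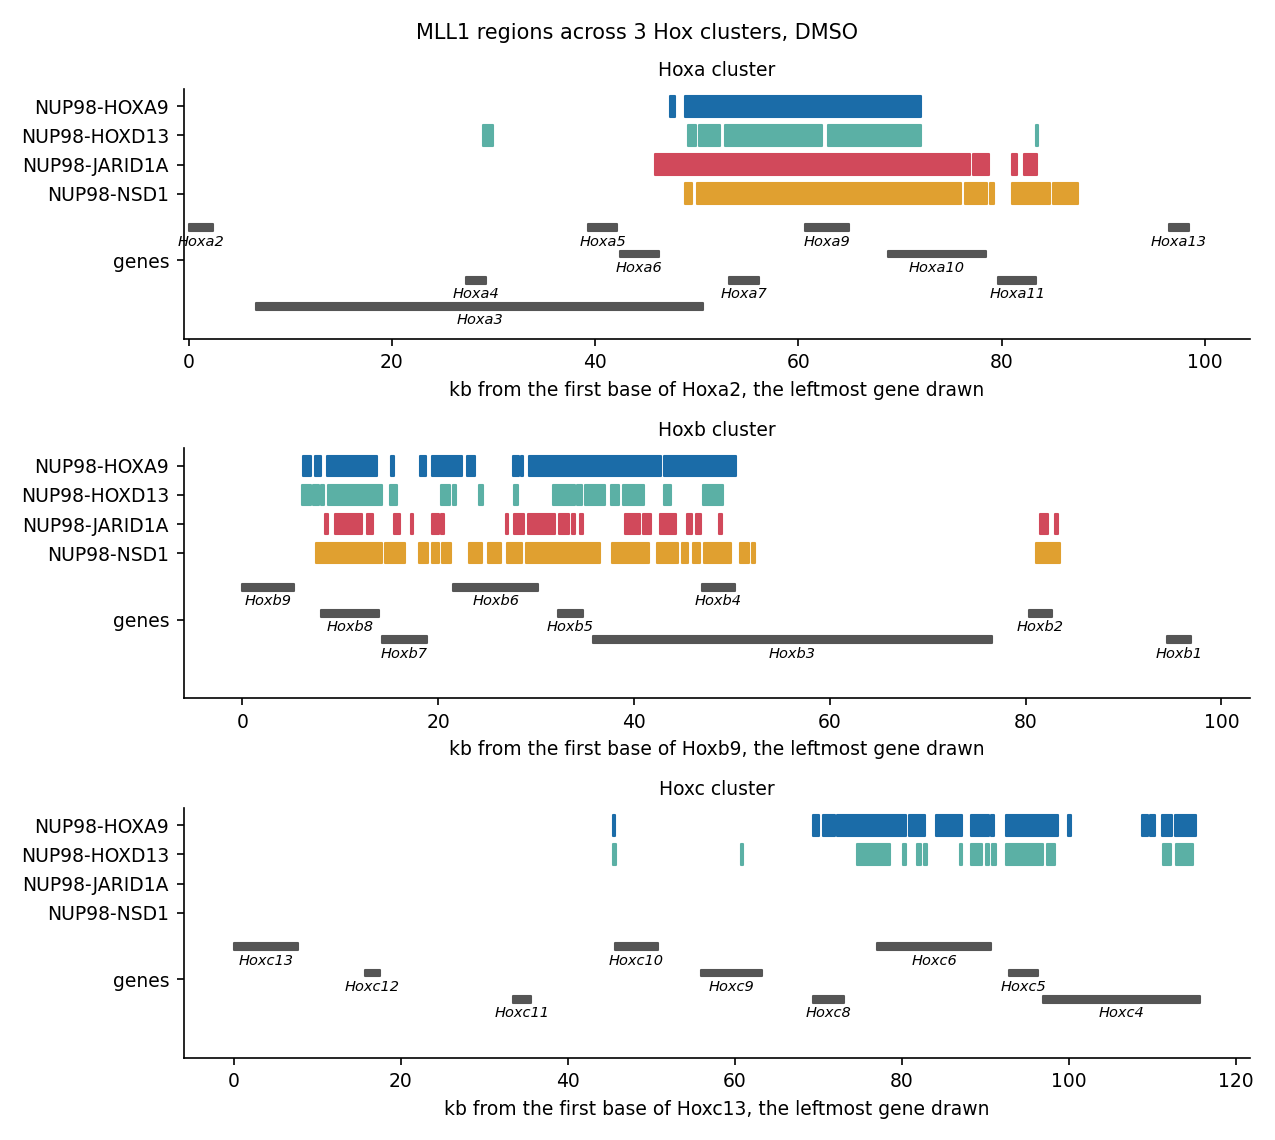
MLL1 regions (coloured blocks, to scale) of the 4 DMSO lists across the Hoxa, Hoxb and Hoxc clusters, with genes below in grey and positions in kb from the leftmost gene drawn (the Hoxa panel starts at Hoxa2, and Hoxb13 lies outside the Hoxb panel). The Hoxa7 to Hoxa10 block is covered in all 4 lists, and Hoxc is covered in NUP98-HOXA9 (30029 bp) and NUP98-HOXD13 (16409 bp) and in neither of the others.

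Among the HOX cofactors, the lines differed most at Pbx3. PBX3 and MEIS1 bind DNA together with HOX proteins. Pbx3 was covered over 22035 bp in NUP98-HOXA9 and 15141 bp in NUP98-HOXD13, against 274 bp in NUP98-JARID1A and 1664 bp in NUP98-NSD1. A single region of 17614 bp lay at its end in NUP98-HOXA9 (chr2:34355720-34373333, fold 92.4). Meis1 was covered in all 4 lines, over 13134 bp in NUP98-JARID1A, 10718 bp in NUP98-HOXA9, 9331 bp in NUP98-HOXD13 and 6189 bp in NUP98-NSD1. Its regions were not among the strongest in every list. With equal-length lists Meis1 kept 12613 bp in NUP98-JARID1A, 286 bp in NUP98-HOXD13 and 0 in NUP98-HOXA9.

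Pbx3 belonged to a set of 9 genes that were long in the homeodomain fusion lines and short in the other lines. Its rule was at least 4 kb in both lines and at most 25% of the lower value in each other list, and it was added after the values were seen. The set was Pbx3, Pde4d, Hoxc6, Zcchc7, Hoxc4, Hoxc5, Mef2c, Arhgap18 and Adk. Mef2c, a transcription factor of early myeloid and lymphoid progenitors, was covered over 5385 bp in NUP98-HOXA9 and 8518 bp in NUP98-HOXD13, 293 bp in NUP98-JARID1A and 0 in NUP98-NSD1. Pde4d, a phosphodiesterase that breaks down cyclic AMP, had 24671 and 11454 bp in the homeodomain fusion lines and 2826 and 2675 bp in the others. No gene met the same rule for NUP98-HOXA9 with NUP98-JARID1A, or for NUP98-NSD1 with any single line. For NUP98-HOXD13 with NUP98-JARID1A the rule found 1 gene, Bcl11a, a zinc-finger repressor of lymphoid and fetal globin control, with 6891 and 9460 bp and 0 in both other lines.

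The share of genes covered over at least 4 kb was small in every line, 375 genes for NUP98-HOXA9 (1.73%), 189 for NUP98-HOXD13 (0.874%), 312 for NUP98-JARID1A (1.44%) and 54 for NUP98-NSD1 (0.250%). In any line they numbered 581, and 31 reached 4 kb in all 4. Foxp1, a forkhead repressor, led these shared genes with 31785, 15995, 17178 and 19274 bp in NUP98-HOXA9, then NUP98-HOXD13, NUP98-JARID1A and NUP98-NSD1. Etv6, an ETS repressor needed by blood stem cells, had 18813, 10174, 12870 and 16228 bp in the same order. Both lie on chromosome 6. Coro2a, a coronin that binds actin, had 10881, 7074, 13469 and 15840 bp and lies on chromosome 4, where NUP98-NSD1 had 32.2% as many regions as NUP98-HOXA9.

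A gene was called widely covered in 1 line alone when it had at least 4 kb there and at most 25% of that length in each other line. The NUP98-HOXA9 line had 26 such genes (0.120% of all genes), NUP98-JARID1A 15 (0.0693%), NUP98-HOXD13 3 (0.0139%) and NUP98-NSD1 1 (0.00462%). With lists of equal length the counts were 14, 55, 0 and 6, so NUP98-JARID1A then led. The genes below are the longest of each set.

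In NUP98-HOXA9 these were mostly long genes with several regions inside them. Tox, an HMG-box factor known from T-cell development, was covered over 20513 bp in NUP98-HOXA9, 1569 bp in NUP98-HOXD13, 832 bp in NUP98-JARID1A and 2019 bp in NUP98-NSD1. St8sia4, which makes polysialic acid chains, had 20736, 4486, 3393 and 2182 bp. Tcf12, an E-protein transcription factor, had 18541, 3881, 1679 and 1301 bp. The next highest value was in NUP98-HOXD13 for St8sia4 and Tcf12 and in NUP98-NSD1 for Tox.

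Mllt3, a subunit of the super elongation complex and itself a partner of MLL fusions, had 11006 bp in NUP98-HOXA9, 2621 bp in NUP98-HOXD13, 1933 bp in NUP98-JARID1A and 0 in NUP98-NSD1. Inside it lay the widest NUP98-HOXA9 domain with no region in the other lists, 5297 bp long (chr4:87861800-87867096, fold 28.4). The next widest without a counterpart touched Kctd4 and Gtf2f2 (4842 bp, chr14:75963651-75968492, fold 19.0). The widest domain that was merely narrower elsewhere lay at Snx10, a sorting nexin (5659 bp, chr6:51587274-51592932, fold 56.4), where NUP98-HOXD13 had 350 bp. Fars2, Pip5k1b, Zfp407 and Nsmce2, also among the 8 longest of the 26 genes, had 10629 to 13546 bp in NUP98-HOXA9 and at most 3351 bp in any other line.

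In NUP98-JARID1A the genes with long coverage included homeobox genes. Nkx2-3, a homeobox gene of spleen and gut vessels, carried a domain of 11199 bp (chr19:43606435-43617633) at fold 72.4, and the other 3 lists had no region there. Six4 had 5642 covered bp in NUP98-JARID1A and 0 in the others. SIX4 is a homeodomain factor that acts with EYA proteins, and Eya1 was longest in NUP98-JARID1A too, with 9907 bp against 7191, 6174 and 0 bp in NUP98-HOXA9, NUP98-HOXD13 and NUP98-NSD1.

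Cdkn2c, which encodes the CDK4 and CDK6 inhibitor p18, had 9367 bp in NUP98-JARID1A and 1503, 1554 and 1819 bp in NUP98-HOXA9, NUP98-HOXD13 and NUP98-NSD1. It was bound in all 4 lines, so the lines differed in length and not in presence. Pde3b, a phosphodiesterase, had 6283 bp in NUP98-JARID1A, 567 bp in NUP98-HOXD13, 269 bp in NUP98-HOXA9 and 0 in NUP98-NSD1. Its 6000 bp domain (chr7:114414074-114420073, fold 55.4) met no region in the other lists. The widest NUP98-JARID1A domain that was narrower elsewhere lay over Git2 and Ankrd13a (11697 bp, chr5:114769532-114781228), where the other lists had 561 to 973 bp. At Zeb2, a zinc-finger repressor of myeloid and stem cells, the domain measured 10375 bp (chr2:45107313-45117687) against 1218 to 1359 bp. Ppp1r15b, Purb, Git2 and Josd1, also among the longest of the 15 genes, had 6583 to 7686 bp in NUP98-JARID1A and at most 1764 bp elsewhere.

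Gata2, a zinc-finger factor of stem cells and mast cells, was covered over 9916 bp in NUP98-JARID1A, 3580 bp in NUP98-HOXD13, 2398 bp in NUP98-HOXA9 and 0 in NUP98-NSD1. Myc had 5730 bp in NUP98-JARID1A, 3252 bp in NUP98-HOXA9, 2429 bp in NUP98-HOXD13 and 1548 bp in NUP98-NSD1. The mast cell and basophil list gives a check on Gata2. Of its 12 genes in the annotation, 8 had no covered base in any line, Cpa3, Mcpt8 and Fcer1a among them. The list had 3, 2, 2 and 1 genes bound in NUP98-HOXA9, then NUP98-HOXD13, NUP98-JARID1A and NUP98-NSD1, all below the background shares, and Gata2 made up most of its NUP98-JARID1A sum of 11238 bp.

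In NUP98-HOXD13 only 3 genes met the rule. Mecom, which encodes the stem-cell factor EVI1, had 5165 bp in NUP98-HOXD13, 1265 bp in NUP98-HOXA9, 680 bp in NUP98-JARID1A and 0 in NUP98-NSD1. Umad1 had 6433 bp against 1069, 1045 and 1257 bp, and Boll, a germ-cell RNA-binding protein, 5055 bp against 681, 0 and 0 bp. None of Mecom's and Boll's regions was among the 7113 strongest of the NUP98-HOXD13 list. The widest domain of this line alone lay at Tut4 (4600 bp, chr4:108458215-108462814, fold 9.94), and the next at Junb and Prdx2 (3839 bp, chr8:84974370-84978208, fold 21.6). A single NUP98-HOXD13 domain met no region elsewhere, 3188 bp inside Runx2 and Supt3 (chr17:44806357-44809544). Runx2 itself was covered in every line, from 4545 bp in NUP98-NSD1 to 18239 bp in NUP98-HOXA9. Satb1 and Mycn, fixed in the lists of leukaemia targets and stem cell regulators, had a bound end in NUP98-HOXD13 alone and were covered there over 1066 and 458 bp. Satb1 also had 356 bp away from its ends in NUP98-JARID1A.

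In NUP98-NSD1 the rule found 1 gene, App, the amyloid precursor protein gene. It was covered over 4113 bp in NUP98-NSD1, 253 bp in NUP98-HOXD13, 209 bp in NUP98-JARID1A and 0 in NUP98-HOXA9. At −log10 q of at least 5 no gene met the rule in this line. Its widest domains without a wide counterpart were those at Hoxa11 (3801 bp, chr6:52243396-52247196, fold 17.4) and Arhgap25 (2975 bp, chr6:87530511-87533485, fold 11.3), both on chromosome 6. That chromosome held 31 of its 119 wide domains (26.1%; 19.0 to 34.6) and 14 of the 32 it had alone. In the other lists chromosome 6 held 4.94 to 5.42% of wide domains. Cav2, which encodes caveolin-2, and Oas1a, an interferon-induced gene, had small regions of 324 and 415 bp in NUP98-NSD1 and no covered base in the others. Of these, Cav2 also lies on chromosome 6.

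**Figure D5:**
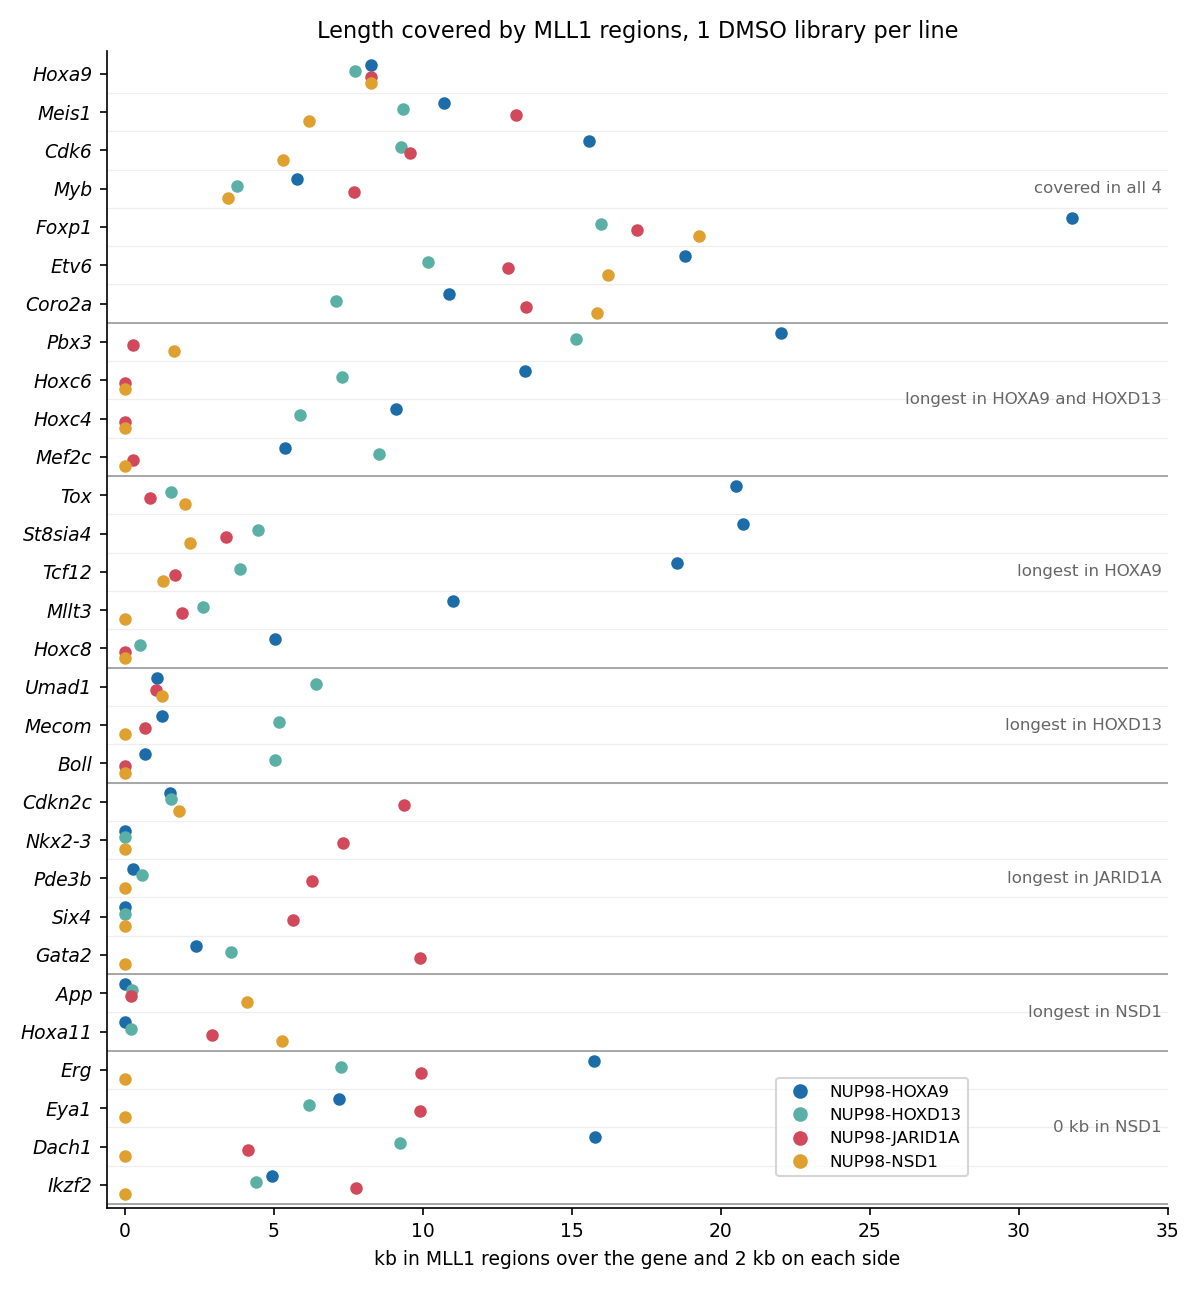
Length (kb) in MLL1 regions over each named gene and 2 kb on each side, with 1 point per DMSO library and genes grouped by the line or lines with the longest coverage. Hoxa9 is covered over its whole stretch of 8274 bp in 3 lines and over 7742 bp in NUP98-HOXD13, Pbx3 and the Hoxc genes are long in NUP98-HOXA9 and NUP98-HOXD13, Nkx2-3 and Six4 have length in NUP98-JARID1A alone, and Erg, Eya1, Dach1 and Ikzf2 are at 0 in NUP98-NSD1.

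Of the 23 stem and progenitor regulators in the list, 9 had a covered base in each of the other 3 lines and none in NUP98-NSD1, where 21.0% of all genes showed this pattern. NUP98-NSD1 had a covered base at 7 of the 23, where 26.1% of all genes had one. Among the 7 were Etv6 (16228 bp), Lmo2 (3651 bp), Fli1 (2686 bp), Hhex (2277 bp) and Runx1 (2206 bp). The other lines had a base at 18, 19 and 17 of the 23, in the order NUP98-HOXA9, NUP98-HOXD13 and NUP98-JARID1A. Of all genes, 53.0, 53.5 and 48.4% had one in these lines. Over all genes, those at 0 in NUP98-NSD1 with the longest minimum cover in the other lines were Erg, Eya1, Ikzf2, Dach1 and Trim8. Erg, an ETS factor of blood stem cells, had 15760 bp in NUP98-HOXA9, 7273 bp in NUP98-HOXD13 and 9937 bp in NUP98-JARID1A. Dach1, a transcriptional repressor, had 15797, 9242 and 4134 bp in the same order. Ikzf2, an Ikaros family factor, had 4927, 4406 and 7772 bp, and Trim8 3792, 4153 and 4480 bp. Tal1 and Lyl1, basic helix-loop-helix factors of stem cells, had 1946 to 3291 bp and 3664 to 4837 bp in these lines. The list of NUP98-NSD1 is the shortest, and 3971 genes were bound in every line but this one, so a gap there was common. With equal-length lists Erg kept 460, 0 and 7719 bp in NUP98-HOXA9, NUP98-HOXD13 and NUP98-JARID1A, and Ikzf2 0, 0 and 7772 bp. In those lists both were therefore long in NUP98-JARID1A and short or at 0 elsewhere.

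Absences were also counted for each long list. Genes bound in all lines but NUP98-JARID1A numbered 79, in all but NUP98-HOXD13 44 and in all but NUP98-HOXA9 21. These counts require a place in the short NUP98-NSD1 list. Without that condition, 843 genes were bound in both homeodomain fusion lines and not in NUP98-JARID1A, against 140 missing from NUP98-HOXD13 alone and 120 missing from NUP98-HOXA9 alone among the 3 long lists. Car2, a carbonic anhydrase, had 2506 bp in NUP98-HOXD13, 1992 bp in NUP98-HOXA9, 919 bp in NUP98-NSD1 and 0 in NUP98-JARID1A. Capg, an actin-capping protein of macrophages, had 1973, 1610 and 991 bp in NUP98-HOXA9, NUP98-HOXD13 and NUP98-NSD1 and 0 in NUP98-JARID1A. Slc22a4, an organic cation transporter, had 2228 bp in NUP98-HOXA9, 1218 bp in NUP98-NSD1 and 1123 bp in NUP98-JARID1A and 0 in NUP98-HOXD13. Cenpv had 3984 bp in NUP98-JARID1A, 856 bp in NUP98-HOXD13, 765 bp in NUP98-NSD1 and 0 in NUP98-HOXA9. In the equal-length lists, where NUP98-NSD1 keeps all its regions, the 3 other lines had a base at these 4 genes only in NUP98-JARID1A, with 3796 bp at Cenpv and 442 bp at Slc22a4.

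The list of 27 known menin-MLL leukaemia targets had 17 genes bound for NUP98-HOXA9, 21 for NUP98-HOXD13, 19 for NUP98-JARID1A and 9 for NUP98-NSD1. Against the background of 45.0%, 45.6%, 41.2% and 22.1% of all genes, these are 63.0%, 77.8%, 70.4% and 33.3%. Their summed covered length was 148494 bp in NUP98-JARID1A, 139142 bp in NUP98-HOXA9, 127141 bp in NUP98-HOXD13 and 47356 bp in NUP98-NSD1, which is 0.943 to 1.29% of all covered gene length in each line. Cdk6, a G1 kinase, was bound in all 4, over 15593, 9270, 9573 and 5327 bp in NUP98-HOXA9, then NUP98-HOXD13, NUP98-JARID1A and NUP98-NSD1. Myb, a progenitor transcription factor, had 5789, 3764, 7682 and 3476 bp, and the demethylase gene Jmjd1c 4191, 3210, 6736 and 3628 bp. Flt3, a growth factor receptor, had 1579, 1355 and 316 bp in the first 3 and 0 in NUP98-NSD1. Sox4 had 5205 bp in NUP98-JARID1A, 4031 bp in NUP98-HOXD13, 1885 bp in NUP98-HOXA9 and 0 in NUP98-NSD1.

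Stem and progenitor regulators had 14, 15, 13 and 4 of 23 genes bound, and granulocyte and monocyte genes 23, 19, 21 and 6 of 28, in the order NUP98-HOXA9, then NUP98-HOXD13, NUP98-JARID1A and NUP98-NSD1. For NUP98-NSD1 these shares, 17.4% and 21.4%, lie near its background of 22.1%, and for the other lines, 56.5 to 65.2% and 67.9 to 82.1%, above theirs of 45.0, 45.6 and 41.2%. Cebpa, the main regulator of granulocyte commitment, was bound in all 4 over 1548 to 3092 bp, and Gfi1, a repressor of the neutrophil path, over 3771 to 5183 bp. Irf8, which directs monocyte and dendritic fate, had 511 bp in NUP98-HOXA9 and 681 bp in NUP98-HOXD13 and 0 in the others. Dendritic cell markers had 7, 7, 4 and 1 of 15 genes bound (46.7, 46.7, 26.7 and 6.67%), near the background in the homeodomain fusion lines and below it in the others. Their summed length was 10433 bp in NUP98-HOXD13, 8729 bp in NUP98-HOXA9, 3039 bp in NUP98-JARID1A and 1048 bp in NUP98-NSD1. The plasmacytoid marker Siglech and the dendritic markers Clec9a and Batf3 were among the 5 of 15 genes with no covered base in any line. Others were bound, such as Bst2 in all 4 lines (835 to 1061 bp) and Xcr1 in all but NUP98-NSD1 (665 to 845 bp). Tcf4 carried 4215 bp of the NUP98-HOXD13 sum.

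Interferon-stimulated genes were bound about as often in the short NUP98-NSD1 list as in the long ones. Of 24 genes found in the annotation, 17 were bound for NUP98-HOXA9, 19 for NUP98-HOXD13, 18 for NUP98-JARID1A and 17 for NUP98-NSD1, where 22.1% of all genes were bound. They made up 0.459% of the covered gene length in NUP98-NSD1, against 0.171%, 0.207% and 0.162%. Usp18, a brake on interferon signalling, had 3306 bp in NUP98-NSD1 and 1921, 2227 and 1988 bp in NUP98-HOXA9, NUP98-HOXD13 and NUP98-JARID1A. Usp18 lies on chromosome 6, which held a larger share of the NUP98-NSD1 regions than of the other lists. The part of this in its length was not tested. Ifih1, an RNA sensor, had 2875 bp against 1846, 1536 and 1008 bp, and Isg15 1665 bp against 661, 1250 and 839 bp. Housekeeping genes were also bound above the background in this line, 16 of 27, but made up 0.325% of covered length against 0.260 to 0.279% in the others.

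Apart from Hoxa9, the genes behind the fusions had short coverage. Kdm5a was bound in all 4 lines over 926 to 1443 bp, and Nsd1 was covered over 914 to 1471 bp. Nup98 had 1505 bp in NUP98-HOXA9, 1249 bp in NUP98-HOXD13, 1045 bp in NUP98-JARID1A and 0 in NUP98-NSD1. Neither Kdm5a in the NUP98-JARID1A line nor Nsd1 in the NUP98-NSD1 line stood out, with 1305 and 914 bp. Kmt2a, which encodes MLL1, was bound in all 4 lines over 749 to 1546 bp. Men1, which encodes menin, had 939 and 972 bp in NUP98-HOXA9 and NUP98-HOXD13, 250 bp in NUP98-JARID1A and 0 in NUP98-NSD1.

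Of 1005 microRNA hairpins in RefSeq, 58, 55, 55 and 26 lay in a region in NUP98-HOXA9, then NUP98-HOXD13, NUP98-JARID1A and NUP98-NSD1, and 6, 3, 10 and 2 in a wide domain. Mir196b, in the Hoxa block beside Hoxa9, was the 1 hairpin in a wide domain of all 4 lines. Mir15b and Mir16-2, within Smc4, lay in a region of 8549 bp in NUP98-JARID1A and in none elsewhere. Mir301, within Ska2, lay in 6901 bp in NUP98-JARID1A alone, and Mir21a, within Vmp1, in 7139 bp in NUP98-JARID1A and 805 bp in NUP98-HOXA9. Mir10a, within Hoxb3, lay in 7340 bp in NUP98-HOXA9 and 525 bp in NUP98-JARID1A. Their mature strands are shown with the seed, bases 2 to 8, in capitals, since miR-15b and miR-16 share a seed.
miR-196b-5p: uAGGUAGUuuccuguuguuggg
miR-15b-5p: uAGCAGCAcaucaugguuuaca
miR-16-5p: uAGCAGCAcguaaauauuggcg
miR-301a-3p: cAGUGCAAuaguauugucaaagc
miR-21a-5p: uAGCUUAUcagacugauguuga
miR-10a-5p: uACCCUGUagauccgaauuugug

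The seed of miR-15b and miR-16 was the same, and the other 4 seeds were distinct. These strands come from RefSeq, and their levels were not measured here. The host gene Smc4 was covered in every line, over 5459 bp in NUP98-HOXA9, 3829 bp in NUP98-HOXD13, 8549 bp in NUP98-JARID1A and 1973 bp in NUP98-NSD1.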

How the data were processed

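MLL1 was immunoprecipitated from formaldehyde-fixed, sheared chromatin with 1 antibody and sequenced as short paired-end reads, per the labels' protocols. Per the submitters' processing notes, reads were handled with bcl2fastq 2.20.0.422, STAR 2.7.5a, Picard 2.9.4, MACS2 and bedtools on mm10. Which input served as control for each list is not given in the sources used here. The only NUP98-NSD1 input in the series came from inhibitor-treated cells, while each other line also had an input from DMSO. The deposited lists give each region's position, a fold enrichment (a ratio), −log10 p- and q-values and a score, all the authors' own values. The fold and −log10 q were used to describe and rank regions within a list, and the score was not used. The lowest deposited −log10 q was 2.00 to 2.05.

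Regions on chromosomes 1 to 19 and X were joined to 21631 RefSeq protein-coding genes (GRCm38.p6, the same assembly as mm10) in Python 3.11.15 with pandas 2.3.3. RefSeq promoters were matched by symbol for 17274 of these genes. Regions were shared when they had at least 1 bp in common. Interval code was tested on simulated regions. With 1 library per line no model or test across lines could be fitted. Intervals are 95% Wilson intervals (scipy 1.17.1).

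The members, the 21 gene lists (327 genes) and all rules were chosen with earlier results of these data known. Genes were named by a rule: 15 set loci in all lines, the longest genes widely covered in 1 line, the strongest ends bound in 1 line, the longest genes missing from 1 line, list members bound in or missing from 1 line, and the longest shared genes. Other list members, microRNAs and the pair rule were chosen after their values were seen. Alternatives were lists of equal length, a −log10 q of at least 5, leaving out NUP98-NSD1, other windows and widths, joined regions, and other flanks. A few genes of the lists are not reported here.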

Additional observations from a re-analysis of the deposited data

How the results depend on the processing

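The 13 counts (genes bound in all 4 lines, and per line the genes bound, wide domains and genes widely covered in that line alone) were recomputed under other settings, which gave 79 values in all, and 58 of them stayed within 1.5 times the reported count. With lists of equal length, genes bound in all 4 lines numbered 2787, genes bound in 1 line alone 190 in NUP98-JARID1A and 791 in NUP98-NSD1, and genes widely covered in 1 line alone 14 for NUP98-HOXA9, 0 for NUP98-HOXD13, 55 for NUP98-JARID1A and 6 for NUP98-NSD1. At a −log10 q of at least 5, NUP98-NSD1 had 0 widely covered genes of its own. Without NUP98-NSD1, 8508 genes were bound in every remaining line. At a width of at least 3 kb, wide domains of 1 line alone numbered 54 for NUP98-HOXA9, 8 for NUP98-HOXD13, 223 for NUP98-JARID1A and 4 for NUP98-NSD1, fewer by construction. Joined across gaps of up to 1 kb they numbered 458 in NUP98-HOXA9 and 178 in NUP98-HOXD13. Without flanks NUP98-NSD1 had 2 widely covered genes of its own. When no covered base was allowed elsewhere, widely covered genes of 1 line numbered 2 for NUP98-HOXA9, 0 for NUP98-HOXD13, 3 for NUP98-JARID1A and 0 for NUP98-NSD1. Without chromosome 6, a setting chosen after seeing the data, NUP98-NSD1 had 18 wide domains of its own. Other causes of these shifts were not tested. No paired analysis was possible because each line has 1 library. Read depth is not given, so it is unknown how far the short NUP98-NSD1 list limits what could be found there.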

Other observations

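Cell cycle genes were bound in most lines, 14, 13, 12 and 10 of 16 in NUP98-HOXA9, then NUP98-HOXD13, NUP98-JARID1A and NUP98-NSD1, or 87.5, 81.3, 75 and 62.5% against 45.0, 45.6, 41.2 and 22.1% of all genes. The counts below are in the same order. Cdkn1b, which encodes the inhibitor p27, had 5133, 2830, 7835 and 3984 bp in these lines, and Rb1 4894, 4087, 5342 and 2710 bp. E2f2, an activator of S-phase genes, was covered over 3394 bp in NUP98-HOXA9 and 3405 bp in NUP98-HOXD13 and had no covered base in the other lines. Ccnd1 had no covered base in any line, and its relative Ccnd2 had 943, 2351, 2552 and 1071 bp. Genes for signalling and cytokine receptors had 18, 17, 16 and 9 of 22 bound, also above the background in each line, with Il3ra, part of the receptor for the IL-3 in the medium, over 1488, 1144, 862 and 0 bp. Genes of the MLL and menin complexes, listed together with MLL fusion partners, had 17, 17, 17 and 8 of 20 bound, above it too. Aff1, with 9512, 7529, 8804 and 4709 bp, was the longest of them except in NUP98-HOXA9, where Mllt3 had 11006 bp. Erythroid and megakaryocyte markers had 3, 4, 2 and 3 of 18 bound, and T and NK markers 1, 2, 2 and 0 of 17. These shares lay below the background, except that the erythroid and megakaryocyte share in NUP98-NSD1, 16.7%, lay near its 22.1%. MHC class II genes had 5, 4, 2 and 2 of 10 bound, shares of 50, 40, 20 and 20% that lie near the background or, in NUP98-JARID1A, below it. Cd74, the invariant chain, had 1383 bp in NUP98-HOXA9, 681 bp in NUP98-HOXD13 and 0 in the other lines.

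The widest region of 2 lists, NUP98-HOXA9 and NUP98-HOXD13, lay near the start of chromosome 9 with the nearest gene 297147 and 297154 bp away. It measured 37887 bp in NUP98-HOXA9 and 19949 bp in NUP98-HOXD13, with a fold of 2.10 and 3.15. Matching regions of 21244 bp in NUP98-JARID1A and 20937 bp in NUP98-NSD1 had a fold of 3.04 and 2.97. The rest of the NUP98-HOXA9 stretch held further regions, of 16409 bp in NUP98-JARID1A, 15972 bp in NUP98-NSD1 and up to 5524 bp in NUP98-HOXD13. The widths thus depend on how the stretch was split, and this region was wide and weak in all 4 lists. How uniquely reads map there was not tested. The region was counted among the shared wide domains. Regions on chromosome Y numbered 12, 16, 9 and 5 in NUP98-HOXA9, then NUP98-HOXD13, NUP98-JARID1A and NUP98-NSD1, and they entered no gene count.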
